A study of Brassica rapa with 8 samples.

Results

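The open flower of *Brassica rapa* was set against the silique, the pod that the pistil becomes after fertilisation. The comparison used 2 of the 8 samples of the series, 1 of flower and 1 of silique taken 15 days after pollination, which were chosen by their labels and not by any measured value. The study sequenced poly(A)+ RNA of the Chinese cabbage line Chiifu from flower, silique, root, leaf, stem and callus, and root and leaf have 2 samples each. Per the labels, the flowers had all opened on one day and were collected without their shoot, and roots, leaves and stems came from plants of 7 weeks. Plants stood in a greenhouse in sunlight at 15 to 25°C and callus was grown in tissue culture at 25°C. No sample carries a mutation, a transgene or a treatment. Neither organ has a second sample, so no spread between plants of these organs can be given. No test was made and no p-value is printed. The labels do not say whether the 2 libraries were prepared or sequenced together, so a difference between organs and one between libraries cannot be told apart.

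The open flower holds sepals, petals, nectaries, stamens with mature pollen and a pistil, and its transcriptome sums over all of them. After pollination the petals and stamens are shed, the ovary wall grows into a green pod, and the seeds inside go through embryo growth and the filling of storage reserves, oil and protein. A whole silique in mid-development therefore mixes pod wall, seed coat, endosperm and embryo. In such whole organs, fewer cells of a type and less RNA per cell cannot be told apart.

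Levels were read as FPKM, fragments per kilobase of gene scaled to the mapped fragments of the library, which the authors deposited for 38200 gene models with the bounds of a 95% interval. A gene was taken as expressed where its lower bound lay above 0, the detection rule of the study. It was called higher in one organ where both intervals did not overlap and the levels differed by at least 2-fold, that is by 1 or more in log2(FPKM + 1). The 28970 genes expressed in flower or silique were tested in this way. The intervals cover the counting error of a library only. At an FPKM near 1 their median half-width was 55.5% of the value in flower and 60.3% in silique, near 10 it was 16.1% in flower and 17.5% in silique, and near 100 it was 6.21% in flower and 7.22% in silique. An FPKM of 1 stood on a median of 14.2 fragments in flower and 11.7 in silique, as derived from the interval widths, so flower was measured slightly more deeply. The table holds no counts and no gene names. Of its 38200 identifiers, 1 was matched to the RefSeq gene table of this species, so gene families, marker genes of pollen, seed or pod wall and sequences are not described here. For the same reason the organ labels could not be checked against marker genes, apart from that 1 gene.

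The 1 gene with a name is a flower gene. Bra000116 is *SWEET9*, a sugar transporter of nectaries that is needed for nectar secretion in Arabidopsis. It lies on Scaffold000001 from 562922 to 564435 in the coordinates of the deposited table. Its FPKM was 134 in flower (95% interval 127 to 141), and it was listed at 0 in silique. It was listed at 0 as well in both root samples, both leaf samples and stem, and stood at 0.304 in callus, with an interval that reaches 0. Flower was thus the only sample in which the gene was expressed by the interval. Its difference of 7.08 in log2(FPKM + 1) ranked 104 among the genes higher in flower. The gene models on either side of it were not called. The left one had an FPKM of 153 in flower and 186 in silique, and the right one had 15.5 in flower and 15.4 in silique.

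Of the 28970 genes tested, 5590 (19.3%) were higher in flower and 4621 (16.0%) were higher in silique, so that 10211 (35.2%) were called in either direction. The rule was also applied to the only samples of the series that share an organ. It called 1058 genes (3.73%) between the 2 samples of root and 1158 genes (4.40%) between the 2 samples of leaf, which come from different batches of plants. The share between flower and silique was thus far above what the rule called between samples of one organ. Among the 26 pairs of samples from different organs the share ran from 28.9% to 53.7%, with a median of 43.3%. Only 2 of those pairs lay below flower against silique, namely leaf 1 against stem at 28.9% and root 1 against stem at 32.9%. Flower differed from the 6 samples of the other organs by 40.8% to 45.8% and silique from them by 40.7% to 48.1%, so each reproductive organ was closer by this measure to the other than to any vegetative sample or callus. These pairs share samples and are not independent of each other. The share also moved with the sample of an organ, as stem differed from leaf 2 by 40.0% and from root 2 by 37.9%. Flower differed from leaf 1 by 40.8% and from leaf 2 by 41.4%. With 1 sample each of flower and silique, how far 35.2% would move with another sample cannot be given.

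**Figure D1:**
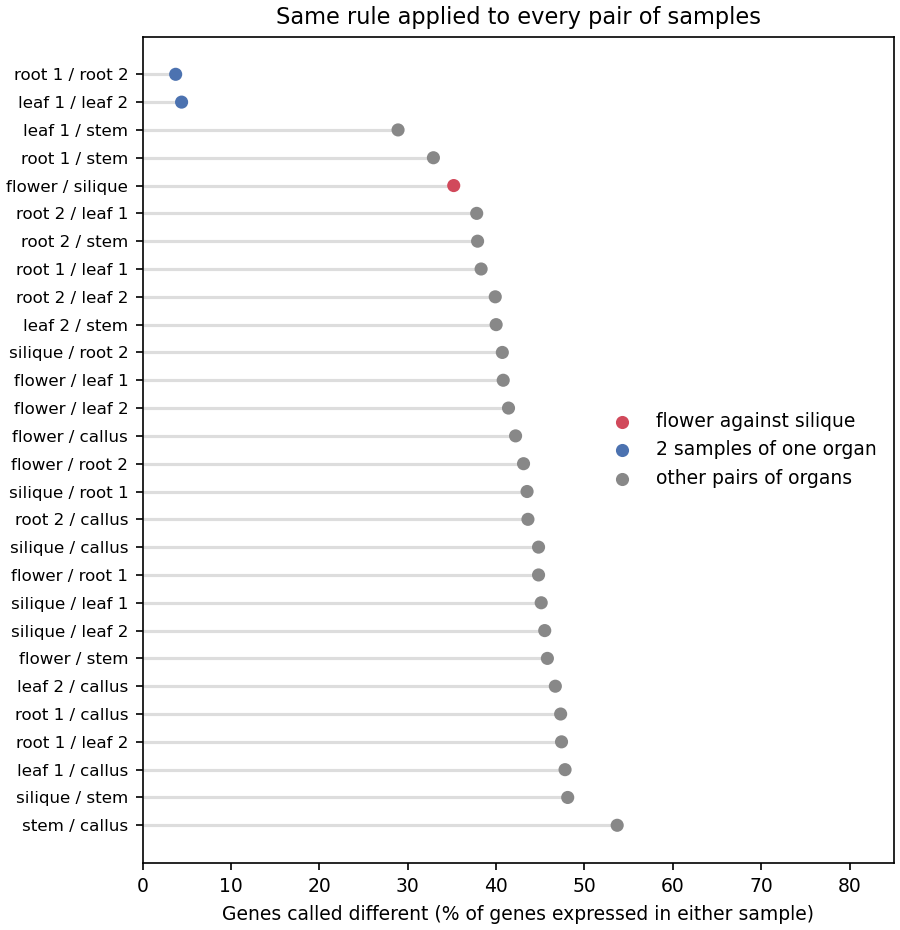
Share of genes called different by the same rule (horizontal axis, % of the genes expressed in either sample) for each of the 28 pairs of samples (vertical axis). Flower against silique stands at 35.2%, the 2 samples of one organ at 3.73% (root) and 4.40% (leaf), and the other pairs of organs between 28.9% and 53.7%.

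The calls were balanced around a common level. Over the 22821 genes expressed in both organs the median difference, flower minus silique, was -0.0044 in log2(FPKM + 1), and 54.7% of the calls were higher in flower. Intervals did not overlap for 18089 genes (62.4% of those tested), of which 7878 differed by less than 2-fold. A further 250 genes differed by 2-fold with overlapping intervals. The threshold ran through a dense part of the distribution: with intervals apart, 525 genes were above silique in flower by 0.9 to 1.0 and 469 by 1.0 to 1.1, and 528 were above flower in silique by 0.9 to 1.0 and 471 by 1.0 to 1.1.

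Most called differences were moderate. Among the genes higher in flower, 3037 (54.3%) differed by 1 to 2 in log2(FPKM + 1), 1788 by 2 to 4, 559 by 4 to 6, 160 by 6 to 8 and 46 by 8 or more. Among the genes higher in silique, 2868 (62.1%) differed by 1 to 2, 1328 by 2 to 4, 313 by 4 to 6, 92 by 6 to 8 and 20 by 8 or more. The median difference was 1.87 for genes higher in flower and 1.68 for genes higher in silique. Flower thus had more calls than silique in each of these classes. A lead of one sample was also found within an organ. The rule called 771 genes higher in root 1 and 287 in root 2, and 864 higher in leaf 1 and 294 in leaf 2.

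**Figure D2:**
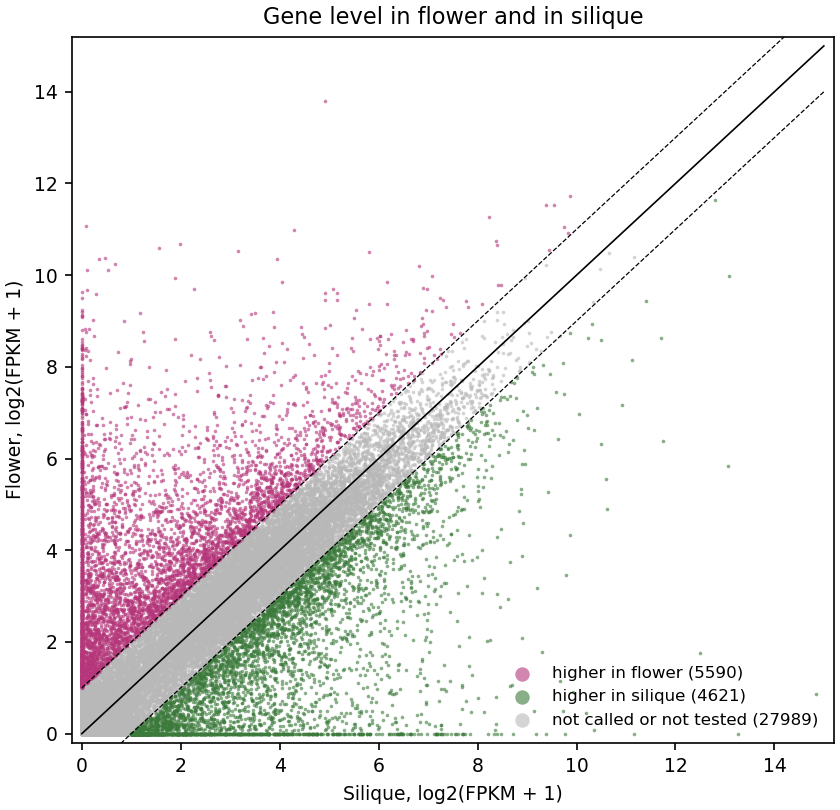
Level of each gene model in flower (vertical axis) and silique (horizontal axis), both in log2(FPKM + 1). The 5590 genes higher in flower lie above the upper dashed line and the 4621 higher in silique below the lower one, where the dashed lines mark a 2-fold difference and the solid line equal levels. Points along the vertical axis are genes at or near 0 in silique.

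The share called depended on the level. Taking each gene at the higher of its values in the 2 organs, 36.6% of the genes above 1 and up to 5 FPKM were called, 34.3% of those up to 20, 40.1% of those up to 50, 52.6% of those up to 200 and 72.3% of the 574 genes above 200. Both directions took part in this. Above 200 FPKM, 40.2% of the genes were higher in flower and 32.1% higher in silique, against 20.7% and 15.9% in these directions between 1 and 5 FPKM. No gene under an FPKM of 1 in both organs can reach a difference of 1 on this scale, and none of the 2709 genes at or under 1 in both was called. The classes were made from the same values that the rule compared, a gene enters a high class through the organ in which it is higher, and intervals narrow with the level (they were apart for 48.9% of the genes between 1 and 5 FPKM and for 97.6% of those above 200). The shares are therefore a description of the calls.

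A gene is at its most distinct where one organ expresses it and the other does not. By the interval, 22821 genes (78.8% of those tested) were expressed in both organs, 3633 in flower and not in silique, and 2516 in silique and not in flower. Most of these exclusive genes were weakly expressed. Their median FPKM was 1.91 for flower and 1.75 for silique, and 2190 (60.3%) of the genes of flower and 1479 (58.8%) of those of silique passed the rule for a difference. An FPKM above 50 was reached by 237 of the genes expressed in flower and not in silique and by 108 of those expressed in silique and not in flower. In the other organ, 1757 of the genes exclusive to flower and 1273 of those exclusive to silique were listed at 0. The interval of a gene with only a few fragments reaches 0, so these numbers give what was not detectable in the other organ and not what is absent from it.

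The study sorted expressed genes as high above an FPKM of 50, medium above 5 and low at or below 5, and these classes show how far genes moved between the organs. Flower had 2348 high genes and silique 2396, and 1288 genes were high in both. Of the high genes of flower, 679 were medium in silique, 144 were low and 237 were not expressed. Of the high genes of silique, 895 were medium in flower, 105 were low and 108 were not expressed. A high level in flower thus went with a low or undetected level in silique for 381 genes, and the opposite held for 213 genes.

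The 2 genes with the largest difference in each direction show that unlike profiles lie behind similar differences. Bra039743, on Scaffold000175 from 70885 to 72992, was the gene with the largest difference in favour of flower, 10.99 in log2(FPKM + 1). Its FPKM was 2137 in flower (2118 to 2157) and 0.0533 in silique (0 to 0.160). It was listed at 0 in both root samples and in leaf 1, and stood at 0.134 in leaf 2, 0.168 in stem and 3.78 in callus. Flower and callus were the samples in which it was expressed by the interval, and whether so low a value in callus is RNA of callus or reads of another library was not tested. Bra023724, on Scaffold000042 from 59990 to 61226, had the next largest difference, 10.01. Its FPKM was 1110 in flower (1093 to 1127) and 0.0777 in silique (0 to 0.233). In contrast to the first gene it was expressed in every other sample, at 28.1 and 12.9 in the root samples, 40.2 and 12.7 in the leaf samples, 46.1 in stem and 4.69 in callus. Silique was thus the sample in which it was lowest and the one sample in which it was not expressed by the interval.

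In favour of silique, the largest difference was that of Bra025046, on Scaffold000046 from 1482287 to 1483980, with -13.98 for flower minus silique in log2(FPKM + 1). It was listed at 0 in all 6 samples of root, leaf, stem and callus, and its FPKM was 0.818 in flower (0.325 to 1.31) and 29280 in silique (29178 to 29383). By its lower bound it counted as expressed in flower. Bra028162, on Scaffold000060 from 551478 to 551787, followed with -13.26. It was listed at 0 in flower, had an FPKM of 9797 in silique (9688 to 9905), stood at 0.166 in root 1 with an interval that reaches 0, and was listed at 0 in the other 5 samples. These were the most abundant and the second most abundant gene models of silique, with 4.62% and 1.54% of its summed FPKM. Both are thus genes of the silique within this series, in contrast to Bra023724, which had its peak in flower and its lowest value in silique.

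Some other abundant genes were not called, although 72.3% of the genes above 200 FPKM in the higher organ were. The 2 given here were chosen among genes not called, so a difference below the limit is built in. Among genes that were not called, Bra000615, on Scaffold000001 from 3297553 to 3299277, had the highest value in whichever organ was lower, with an FPKM of 1435 in flower (1415 to 1455) and 1624 in silique (1600 to 1647), a difference of -0.18 in log2(FPKM + 1). Outside these organs it was much lower, at 11.57 and 11.97 in the root samples, 0.710 and 0.858 in the leaf samples and 5.38 in callus, and it was listed at 0 in stem. Bra020323, on Scaffold000030 from 1497640 to 1498176, came next, with 1346 in flower (1311 to 1381) and 2294 in silique (2243 to 2344). Its intervals were apart, and its difference of -0.77 was below the 2-fold limit. It had 16.3 and 10.5 in the root samples, 22.2 and 12.7 in the leaf samples, 16.3 in stem and 3.18 in callus. Both genes were thus far higher in the reproductive organs than in each of the other 6 samples.

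**Figure D3:**
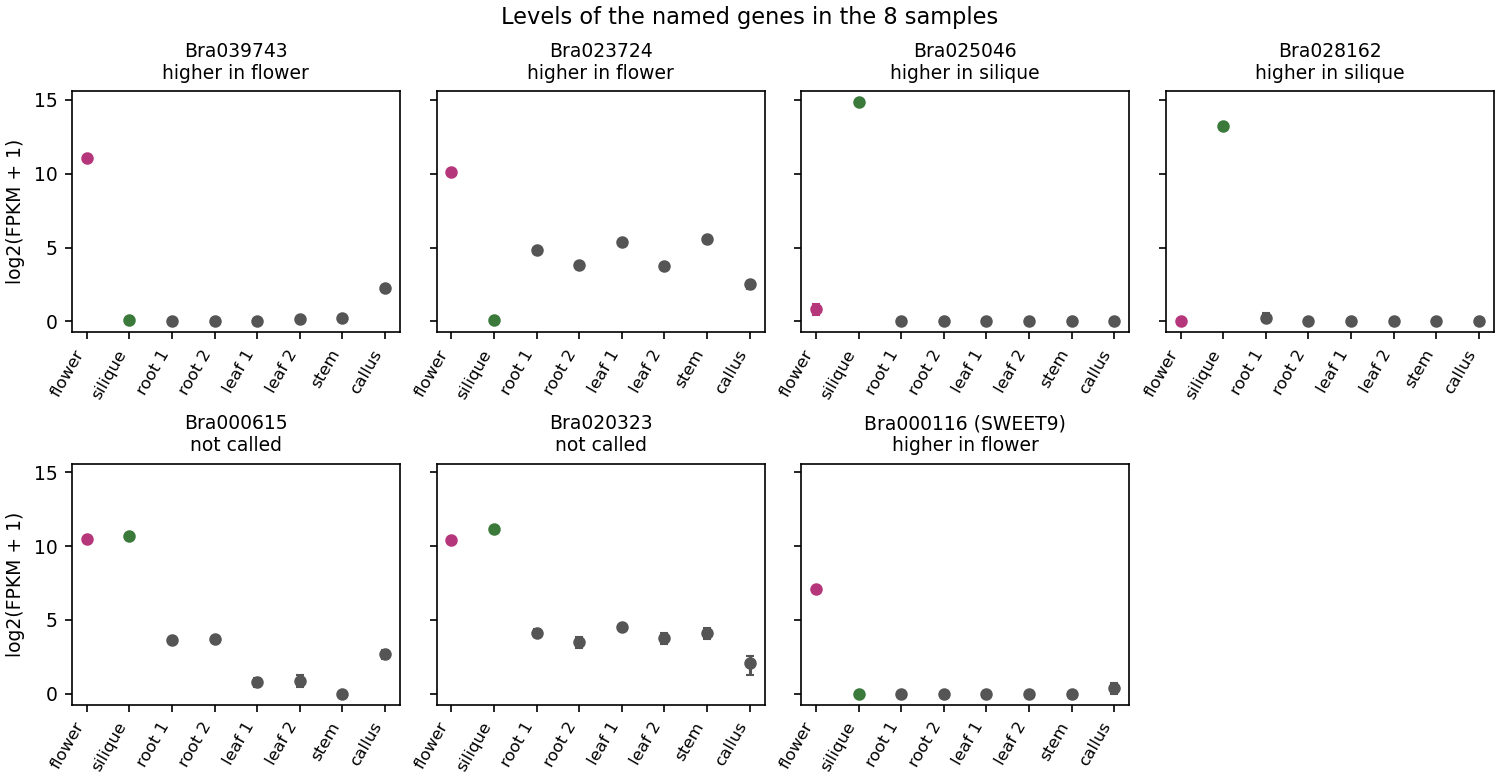
Level of the 7 genes described by identifier in the 8 samples (vertical axes, log2(FPKM + 1)), with bars for the 95% interval of counting error, which are mostly smaller than the points. Bra039743 and *SWEET9* are high in flower, Bra025046 and Bra028162 in silique, Bra000615 and Bra020323 in both, and Bra023724 is low in silique and present elsewhere.

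The called genes made up much of the RNA of their organ. Genes higher in flower held 43.7% of the summed FPKM of flower and 6.13% of that of silique, and genes higher in silique held 7.61% of the summed FPKM of flower and 44.0% of that of silique. These shares restate the calls and describe how much of each transcriptome they cover. The median FPKM of the genes higher in flower was 11.7 in flower and 0.938 in silique, and that of the genes higher in silique was 1.77 in flower and 13.7 in silique. In the opposite organ, 3400 (60.8%) of the genes higher in flower were expressed in silique and 3142 (68.0%) of the genes higher in silique were expressed in flower. Among all genes tested 87.5% were expressed in silique and 91.3% in flower, so both shares were below those of all genes. Detection rests on the intervals that the rule used, so a lower share is built in to some extent.

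Silique concentrated its transcripts in fewer genes. The gene with the highest FPKM held 2.34% of the summed FPKM in flower and 4.62% in silique, the 10 highest held 6.13% in flower and 12.8% in silique, and the 100 highest held 17.6% in flower and 23.4% in silique. To reach 50% of the summed FPKM took 1456 genes in flower and 1161 in silique. Of the 100 highest genes of flower, 81 were higher in flower, 4 were higher in silique and 15 were not called, and their median FPKM was 695 in flower and 62.9 in silique. Of the 100 highest genes of silique, 6 were higher in flower, 67 were higher in silique and 27 were not called, and their median FPKM was 200.4 in flower and 635 in silique. Among all genes tested 19.3% were higher in flower and 16.0% higher in silique, but each list was chosen by a value that the rule used, so its excess of calls in its own organ is built in. The 2 lists had 20 genes in common, 20% of each. Since FPKM is scaled to the fragments of a library, genes that take a large share of one organ lower the values of all others there. When the 4 highest genes of each organ were left out and both organs rescaled, the median difference of genes expressed in both moved by -0.06, and 51.8% of the calls were higher in flower.

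The other 6 samples were not used by the rule and show what kind of difference the calls are. Of the 5590 genes higher in flower (19.3% of those tested), 2619 (46.9%) had their highest FPKM of the whole series in flower. Of the 4621 genes higher in silique (16.0% of those tested), 2839 (61.4%) had theirs in silique. Among all genes tested the corresponding shares were 15.3% for flower and 17.5% for silique. Only 7 of the 8 samples can be the highest for a called gene, so a share above that of all genes is built in to some extent. The remaining 2971 genes higher in flower peaked elsewhere, 970 in root, 815 in leaf, 611 in stem and 575 in callus. The remaining 1782 genes higher in silique peaked in root (694), stem (519), callus (382) and leaf (187). Leaf was the peak of 14.6% of the genes higher in flower and of 4.05% of those higher in silique, against 12.5% of all genes tested. Stem was the peak of 10.9% and 11.2% of these sets against 22.6% of all genes tested, root of 17.4% and 15.0% against 20.8%, and callus of 10.3% and 8.27% against 11.2%.

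The level of the called genes in the other samples differed between the sets, too. The genes higher in flower had a median FPKM of 4.62 and 3.53 in the leaf samples, 4.85 in stem, 4.20 and 3.25 in the root samples and 2.84 in callus, all above their median of 0.938 in silique. The genes higher in silique had a median of 2.02 and 1.54 in the leaf samples, 3.24 in stem, 4.45 and 3.86 in the root samples and 2.26 in callus. Against their median of 1.77 in flower, leaf 2 was lower and the other 5 were higher. Over all genes tested the medians were 5.66 and 4.37 in leaf, 7.33 in stem, 7.15 and 5.73 in root and 4.42 in callus, so both sets were below the level of all genes tested in these 6 samples, and the genes higher in silique were further below it in leaf than in root.

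**Figure D4:**
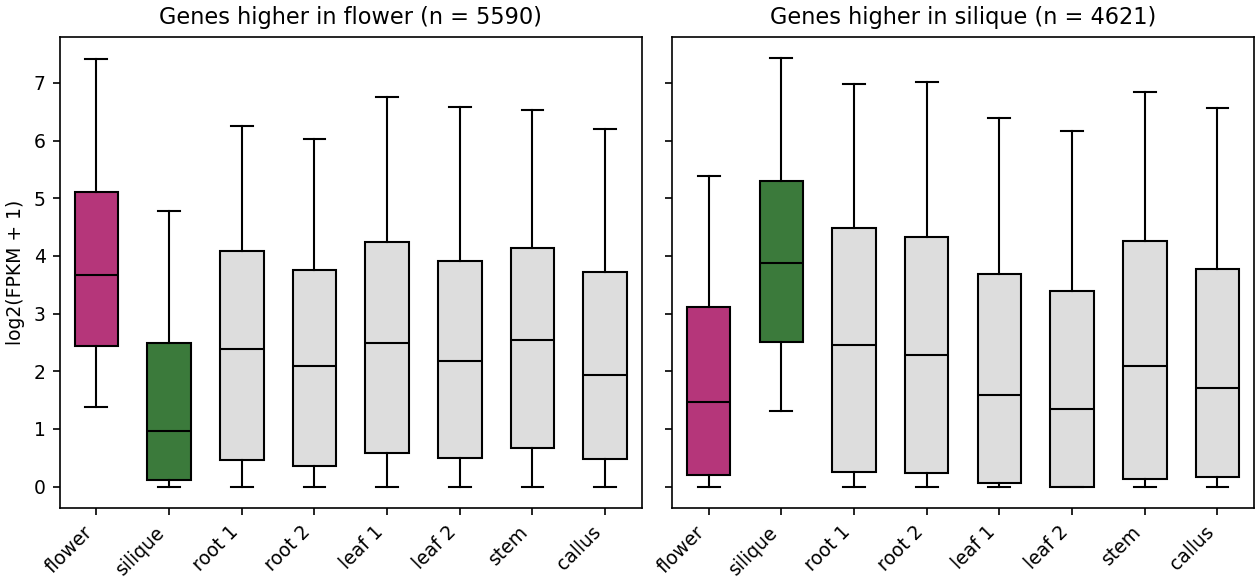
Levels (vertical axes, log2(FPKM + 1)) of the 5590 genes higher in flower and the 4621 genes higher in silique in each of the 8 samples. Boxes span the quartiles with the median as a line and whiskers run from the 5th to the 95th percentile. In the set higher in flower silique has the lowest median, 0.938 FPKM, and in the set higher in silique flower (1.77) and leaf 2 (1.54) have the lowest.

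A higher value in flower can go with a peak in flower or with a low point in silique, and both were found. Of the genes higher in flower, 2858 (51.1%) had silique as their lowest sample or tied with the lowest, 1125 (20.1%) had in addition their peak in flower, and 1238 (22.1%) had neither. Of the genes higher in silique, 1818 (39.3%) had flower as their lowest sample or tied with it, 922 (20.0%) had in addition their peak in silique, and 886 (19.2%) had neither. A gene listed at 0 is lowest or tied by definition. In the opposite organ, 1224 of the genes higher in flower and 883 of those higher in silique were listed at 0. The rule also puts the opposite organ below another sample, so part of these shares is built in. With a margin of 2-fold, flower stood above every other sample for 1701 (30.4%) of the genes higher in flower, and silique stood below every other sample for 694 (12.4%) of them. Silique stood above every other sample by that margin for 1847 (40.0%) of the genes higher in silique, and flower stood below every other sample for 324 (7.01%) of them. A clear low point was thus less frequent than a clear peak in both directions. With a pseudocount of 1, a low point by this margin needs an FPKM of at least 1 in every other sample. A peak needs no such level in the other samples, so part of the gap is built in.

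The larger the difference, the more often the gene peaked in the organ concerned. Among genes higher in flower, flower was the highest sample for 34.0% of those that differed by 1 to 2 in log2(FPKM + 1), 53.6% of those by 2 to 4, 77.6% of those by 4 to 6, 92.5% of those by 6 to 8 and for all 46 of those by 8 or more. Among genes higher in silique, silique was the highest for 52.0%, 71.4%, 93.3% and 96.7% in these classes in the same order and for all 20 of the last one. In each class below the last the share was higher for silique than for flower. The classes were made from the values of flower and silique, and a larger difference needs a higher level in that organ: the median FPKM in flower was 6.60 in the first class of genes higher in flower and 452 in the last. Part of the climb is thus built in, and the shares are given as a description.

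**Figure D5:**
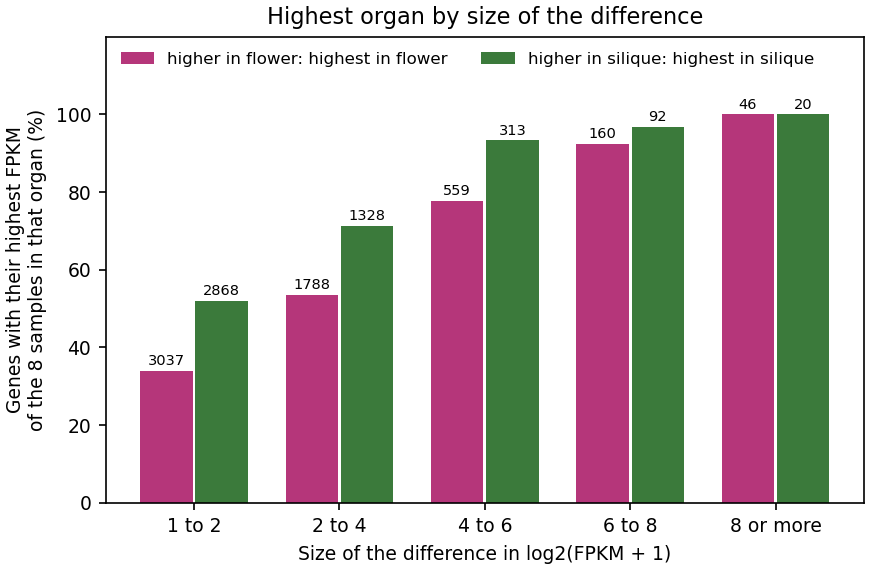
Share of called genes (vertical axis, %) that have their highest FPKM of the 8 samples in the organ in which they were called higher, by the size of the difference in log2(FPKM + 1) (horizontal axis). Numbers above the bars are the genes in each class, and the share climbs to 100% in the last class, which holds 46 genes of flower and 20 of silique.

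Genes called in the comparison were often expressed outside the reproductive organs. All 6 other samples expressed 3283 (58.7%) of the genes higher in flower and 2449 (53.0%) of those higher in silique, against 71.5% of all genes tested. None of them expressed 619 (11.1%) of the genes higher in flower and 907 (19.6%) of those higher in silique. The matching share over all genes tested is not given, so these counts and the shares by class below are descriptions only. At least 1 other sample expressed 92.9% of the genes higher in flower by 1 to 2, 75.8% of those by 4 to 6 and 63.8% of those by 6 to 8, but 91.3% of the 46 genes by 8 or more. Callus set this last value, since it dropped to 32.6% when callus was not counted, and to 43.8% for the genes higher by 6 to 8. Chosen apart from these classes, 37 genes had at least 200 FPKM in flower and at most 0.1% of that in every other sample but callus. Their level in callus was a median of 0.195% of that in flower. Whether such values are RNA of callus or reads of another library was not tested. For silique the shares in these classes were 86.5%, 54.6%, 38.04% and 20.0%, and the last was 15.0% when callus was not counted. The leaving out of callus was chosen after the values were seen.

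Gene models called in the comparison were shorter in the median than those not called. The locus, introns included, spanned a median of 1848 bases for genes higher in flower, 1516 for genes higher in silique and 2087 for genes tested and not called. The median fell further with the size of the difference in silique, to 918 bases for the 20 genes that differed by 8 or more, while it was 1570 bases for the 46 such genes of flower. Short genes collect fewer fragments at the same FPKM, so their intervals are wider, and the part of this in the counts was not tested. Loci that overlap another gene model held 759 (7.43%) of the called genes, 397 higher in flower and 362 higher in silique, against 8.24% of all genes tested. The library protocol in the labels describes no step that marks the strand, so reads of such overlapping models may be shared between them.

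After a gene called in one direction, the next gene was called in that direction somewhat more often than after other genes. Along the scaffolds, among tested genes without overlap, the next gene was higher in flower after 22.8% of 5104 genes higher in flower, after 16.7% of 4193 genes higher in silique and after 19.2% of 16922 genes that were not called. The next gene was higher in silique after 13.7% of the genes higher in flower, 20.3% of the genes higher in silique and 15.7% of the genes not called. These are descriptions over genes of 2 libraries. Runs of at least 3 consecutive genes numbered 223 for flower and 131 for silique, and runs of at least 5 numbered 12 for flower and 7 for silique.

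The longest run in each direction was compact. For flower it held 7 genes within 12.7 kb, on Scaffold000041 from 1626281 to 1638990. All 7 were listed at 0 in silique and had their highest level of the series in flower. In the order of the scaffold their FPKM in flower was 4.87, 3.86, 1.32, 1.64, 3.63, 8.46 and 13.6. Their loci spanned 279 to 361 bases, and no other sample reached more than 1.29 for any of them. The span holds 11 gene models in all, of which 4 were not tested or overlap another. For silique the longest run held 6 genes within 11.6 kb, on Scaffold000046 from 901026 to 912647, and all 6 had their highest level of the series in silique. In the order of the scaffold their FPKM was 0.307, 12.2, 8.27, 0.0983, 0 and 0.304 in flower and 47.6, 29.9, 127, 2.13, 2.68 and 3.42 in silique. Per the paper's methods only uniquely mapped reads were used, so levels of neighbouring near-identical copies, if these are such, may be understated.

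Both directions were spread over the genome. On the 44 scaffolds with at least 200 tested genes, the share higher in flower ran from 15.5% on Scaffold000027 to 27.5% on Scaffold000031, and the share higher in silique from 12.2% on Scaffold000037 to 21.1% on Scaffold000029. Over all genes tested these shares were 19.3% and 16.0%. More genes were higher in flower than in silique on 37 of these 44 scaffolds, which restates the lead of flower in the total.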

How the data were processed

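Poly(A)+ RNA of 8 samples was sequenced as paired ends. Per the paper's methods, the authors removed low-quality reads and trimmed read starts, aligned with TopHat (version 1.0.13 in the submitters' processing notes), kept uniquely mapped reads and derived FPKM in Cufflinks. The paper names a later TopHat version and chromosomes of a genome release with more annotated genes, so the deposited table may come from another run, to which these steps may not all apply. The authors deposited FPKM with 95% bounds per gene and sample in one table, whose first line names the sample of each column. It names no build and places genes on 423 scaffolds, whose coordinates are given as deposited. All columns were matched, and 0 were left out.

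Flower was compared with silique by the rule of non-overlapping intervals and at least 2-fold on log2(FPKM + 1), with a pseudocount of 1, which understates the change of low genes. With 1 sample a side no test was made. Fragments per FPKM were derived as the square of 2 times FPKM over the distance to the upper bound, which holds for counting error alone. The call rule was tried on simulated data with counting error only, which hold no spread between plants or libraries. Alternatives changed the pseudocount, fold, interval rule, filters, scaling and samples. Named were the 2 genes with the largest difference in each direction, the 2 genes highest in both organs among those not called, and, outside that rule and with its values seen, the 1 gene with a RefSeq name (assembly CAAS_Brap_v3.01). Rule, groups and lists were chosen with earlier results of these data known. Scripts ran in Python 3.11.15 with matplotlib 3.10.9, scipy 1.17.1, pandas 2.3.3 and numpy 2.4.6.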

Additional observations from a re-analysis of the deposited data

How the results depend on the processing

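Neither organ has a replicate, so the counts between flower and silique have no replicate check. No paired analysis was possible because flower and silique have 1 sample each and no test was run. Over 8 of the 9 alternatives the genes higher in flower numbered 4032 to 6957 and those higher in silique 3422 to 5683, with flower ahead each time. Asking for 4-fold gave 2553 higher in flower and 1753 higher in silique. On the plain ratio of FPKM all 5590 and 4621 genes called before were called again. This is built in, since a pseudocount of 1 only shrinks a ratio between organs. A filter of at least 1 FPKM in flower or silique left both counts unchanged, which is built in as well.

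Of the genes higher in flower, 46.9% peaked in flower, and leaving out each root or leaf sample gave 47.0% to 48.4%. For silique the share was 61.4% and the range 61.7% to 63.2%. Without callus the shares were 51.8% for flower and 65.9% for silique, among genes that differed by 4-fold 62.2% and 77.0%, and with a 2-fold margin over every other sample 30.4% and 40.0%. Genes expressed in one organ and listed at 0 in the other numbered 1757 for flower and 1273 for silique, in place of 3633 and 2516. Between the samples of one organ the plain ratio of FPKM called 1997 genes in root and 2197 in leaf, in place of 1058 and 1158, and a 4-fold limit called 122 in root and 120 in leaf. Genes expressed in none of the other samples numbered 758 for flower and 1003 for silique when callus was not counted, a setting chosen after seeing the data, in place of 619 and 907. The cause of these shifts was not tested.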

Other observations

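Genes that were high in both reproductive organs and low elsewhere were few. An FPKM above 50 in flower and in silique together with at most 5 in each of the other 6 samples was found for 13 genes. Their FPKM ran from 57.9 to 662 in flower, with a median of 125, and from 63.0 to 2217 in silique, with a median of 93.4. Of these genes 3 were called higher in flower, 3 were called higher in silique and 7 were not called, where 35.2% of all genes tested were called in either direction.

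Callus had low values for abundant flower genes that were near 0 in the other samples. This was looked for after the values were seen. An FPKM of at least 200 in flower and at most 0.1% of that level in silique and in each root, leaf and stem sample was found for 37 genes, all of them called higher in flower. Callus was not used to choose them. Of the 37, 36 had an FPKM above 0 in callus and 31 were expressed there by the interval. The level in callus was a median of 0.195% of that in flower, with quartiles of 0.153% and 0.266%, over flower levels from 204 to 2137. For silique, of 20 genes with at least 200 in silique and at most 0.1% of that in every sample but callus, 17 were listed at 0 in callus. The highest FPKM in callus among the 20 was 15.9. Of 29 genes with at least 200 in silique and at most 0.1% of that in every sample but flower, 18 had an FPKM above 0 in flower and 14 were expressed there by the interval. Their level in flower was a median of 0.0410% of that in silique, with quartiles of 0% and 0.265%. The highest FPKM in flower among the 29 was 284, so not all of them were near 0 there. Bra039743 was one of the 37 and had the highest FPKM among them in callus, 3.78. Whether the low values in callus and in flower are RNA of the sample or reads carried over from another library was not tested.

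The genes higher in silique held 34.3% of the summed FPKM of callus and 20.5% when 1 gene model with an FPKM of 128522 in callus was left out. That gene had 3178 in flower and 7121 in silique and was among the genes called higher in silique.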
